A study of Mus musculus with 14 samples.

Results

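The genes described here run the tricarboxylic acid (TCA) cycle in mouse liver, bring pyruvate into it and refill it. There are 34 of them. They are the enzymes of the cycle with their cytosolic counterparts, the pyruvate dehydrogenase complex with its kinases and 1 phosphatase, the mitochondrial pyruvate carrier, pyruvate carboxylase, glutamate dehydrogenase and the 2 aspartate transaminases. They were taken by name, with no cut on measured values, but the list was chosen with earlier results of these data known. Probes were matched to current gene symbols by accession, and where that gave no match by current or older gene name. The brightest probe stood for each gene. In this way 32 of the 34 had a probe, of 36093 genes on the array in all, and the same 32 were among the 32673 genes tested. Both totals count probes without a match as genes under the files' own names. Of the 32673, 15235 had a matched symbol, and shares of all genes below are over all 32673. Suclg2 and Pdp2 had no probe by this rule. All 32 were well above background on all 14 arrays in both colours, so the filter on dim probes removed no member.

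The study set livers of male C57BL/6 mice, 1 year old, on 3 diets against each other. The resveratrol group (n = 4) ate AIN-93G modified so that fat gave 60% of calories, with 0.04% resveratrol, a plant polyphenol, added. The high-calorie group (n = 5) ate the same modified diet without resveratrol, and the standard group (n = 5) ate plain AIN-93G. No transgene was involved, and no group received resveratrol on the standard diet. Each array carried RNA of 1 animal in the dye Cy3 and a pool of 5 standard-diet livers in the dye Cy5. Values below are ratios of animal to pool on the log2 scale, or differences between 2 such ratios. The labels call the animals replicates.

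In the TCA cycle, the acetyl group of acetyl-CoA is oxidised to carbon dioxide and the electrons pass to the respiratory chain. Pyruvate reaches the mitochondrion through the carrier made of Mpc1 and Mpc2. There, pyruvate dehydrogenase turns it into acetyl-CoA, or pyruvate carboxylase turns it into oxaloacetate. In liver the carboxylase route supplies gluconeogenesis, and filling the cycle in this way is called anaplerosis. Pyruvate dehydrogenase kinases switch the dehydrogenase off by phosphorylation, and its phosphatases switch it back on.

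Idh2 and Mpc1 were the 2 members that passed the test in both the high-calorie and the resveratrol comparison, so their promoters are shown. The sequences are RefSeq windows on GRCm38.p6, from 250 bases before to 50 after each annotated start, on the gene's strand. Capitals mark the CCAAT box (CCAAT or its reverse complement) in the first and second windows and the nuclear receptor half-site (AGGTCA or its reverse complement) in the third.
Idh2, chr7:80115301-80115600, minus strand: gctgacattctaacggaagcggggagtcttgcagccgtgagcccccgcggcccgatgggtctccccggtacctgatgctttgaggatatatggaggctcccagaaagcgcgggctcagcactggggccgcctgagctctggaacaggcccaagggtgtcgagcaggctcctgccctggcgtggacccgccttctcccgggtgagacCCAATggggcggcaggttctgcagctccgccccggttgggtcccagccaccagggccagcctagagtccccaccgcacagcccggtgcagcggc
Mpc1, chr17:8283537-8283836, plus strand: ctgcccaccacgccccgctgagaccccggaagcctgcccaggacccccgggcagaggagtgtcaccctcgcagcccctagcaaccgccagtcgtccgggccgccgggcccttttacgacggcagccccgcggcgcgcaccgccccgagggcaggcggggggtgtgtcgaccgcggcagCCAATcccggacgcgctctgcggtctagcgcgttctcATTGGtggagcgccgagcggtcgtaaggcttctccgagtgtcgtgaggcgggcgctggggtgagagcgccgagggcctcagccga
Mpc1, chr17:8284204-8284503, plus strand: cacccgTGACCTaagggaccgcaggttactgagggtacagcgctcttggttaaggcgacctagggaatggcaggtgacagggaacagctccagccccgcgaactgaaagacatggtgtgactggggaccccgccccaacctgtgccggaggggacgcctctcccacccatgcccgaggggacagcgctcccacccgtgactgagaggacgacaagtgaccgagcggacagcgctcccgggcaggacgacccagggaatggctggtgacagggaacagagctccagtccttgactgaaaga

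Windows were on hand for 32 of the 34 member genes, 42 in all, and none for Sdhc and Idh3a. Both strands were searched for 5 motifs, and a match is a description of letters, not a binding site. CCAAT was in 26 of the 42 member windows, of 20 genes, against 37.4% of all 32851 windows. AGGTCA was in 10 member windows, against 16.3% of all windows. The motif named for NRF1, GCGCA and GCGC with any base between them, was in the windows of Dld, Sdha, Sdhd and Sucla2, against 4.6% of all windows. The extended half-site bound by oestrogen-related receptors, TCAAGGTCA, was in the Sdhd window, against 0.423% of all windows. It contains AGGTCA, so the Sdhd window counts for both. A direct repeat of AGGTCA with any base between the copies was in no member window and in 0.0396% of all windows.

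Between 77.9% and 92.4% of probes were well above background in Cy3 on each array, and pairwise correlations between arrays over all genes lay between 0.275 and 0.889. Among all genes tested, 3083 passed between high-calorie and standard diet, 1760 between resveratrol and high-calorie, and 70 between resveratrol and standard diet. Of the 3083, 56.9% were higher on the high-calorie diet, a share that was 79% when the arrays were centred on their medians in place of loess, 80.7% with the Cy3 channel alone and 80.1% with the deposited scores. Of the 1760, 58.7% were higher with resveratrol, against 25.8%, 31.1% and 33.3% under the same settings. The standard-diet array of replicate 2 was the dimmest of the 14, with a median net Cy3 intensity of 48.6, and it gave the lowest of the 5 standard-diet values in 24 of the 32 members. The resveratrol array of replicate 3 gave the lowest of the 4 resveratrol values in 16 members. On the high side, resveratrol replicate 2 gave the highest resveratrol value in 19 members. Standard-diet replicate 5 gave the highest standard-diet value in 17. Without standard-diet replicate 2, 7 members passed between high-calorie and standard diet, beside 7.13% of all genes, with a median member difference of 0.18.

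The first comparison asked what the high-calorie diet did to these genes. In all, 8 members were higher in high-calorie than in standard-diet livers, none was lower, and 24 did not pass (limma, adjusted p under 0.05 over all genes). Higher calls made up 5.37% of all genes tested, lower calls 4.07%, and calls in either direction 9.44%. The median log2 difference was 0.25 over the 32 members and -0.0021 over all genes tested. The difference was above 0 in 30 members, against 49.2% of all genes, with Ogdh (-0.12) and Pdk3 (-0.03) the 2 exceptions. At an unadjusted p under 0.05 stood 19 members, beside 27.6% of all genes tested. The called members were Mpc1, Dlst, Idh2, Suclg1, Dlat, Aco1, Pcx and Mdh2. The 4 cytosolic members Idh1, Aco1, Mdh1 and Got1 had a median difference of 0.29, beside 0.24 for the 28 tested mitochondrial members.

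**Figure D1:**
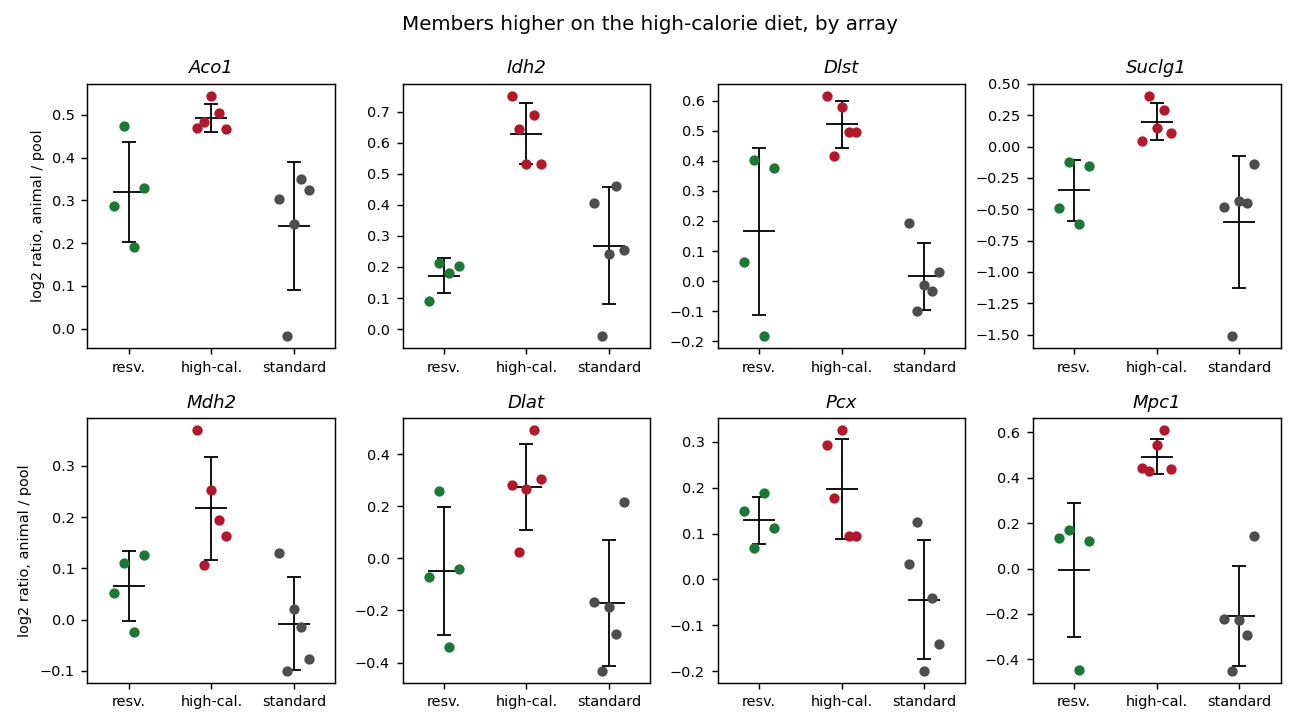
Log2 ratio of animal to pool on each array for the 8 members called higher on the high-calorie diet, with resveratrol, high-calorie and standard-diet animals from left to right. Points are single animals, and bars give the mean and SD (n = 4, 5 and 5). The high-calorie points lie above all standard-diet points for Aco1, Idh2, Dlst, Suclg1 and Mpc1, while those of Mdh2, Dlat and Pcx overlap the standard-diet points.

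At the entry of pyruvate, Mpc1, one subunit of the carrier, gave ratios of 0.44, 0.43, 0.54, 0.61 and 0.44 in high-calorie livers, against -0.22, -0.45, -0.23, -0.29 and 0.15 in standard-diet livers. All 5 high-calorie values lay above all 5 standard-diet values. The log2 difference was 0.70 ± 0.12 (SE), a 1.63-fold higher ratio, with an adjusted p of 0.0029 in limma. Its partner subunit Mpc2 differed by 0.18 ± 0.13 and did not pass (adjusted p = 0.407 in limma). Pcx, pyruvate carboxylase, gave 0.29, 0.18, 0.33, 0.10 and 0.09 in high-calorie livers, against 0.03, 0.13, -0.20, -0.04 and -0.14 in standard-diet livers. These groups overlapped at the low end of the high-calorie values. The difference of 0.24 ± 0.06 had an adjusted p of 0.0329 in limma.

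In the pyruvate dehydrogenase complex, Dlat, the acetyltransferase core, gave 0.28, 0.03, 0.27, 0.49 and 0.30 in high-calorie livers, against -0.17, -0.43, -0.19, -0.29 and 0.22 in standard-diet livers. The high-calorie value of 0.03 lay below the standard-diet value of 0.22. Dlat rose by 0.45 ± 0.12 with an adjusted p of 0.0389 in limma. Pdhx, which binds the lipoamide dehydrogenase to the core, differed by 0.25 ± 0.10 (adjusted p = 0.130 in limma), although its high-calorie values of -0.15 to -0.03 lay above the standard-diet values of -0.82 to -0.15, touching at 2 decimals. The 2 subunits of the decarboxylating enzyme, Pdha1 and Pdhb, differed by 0.10 ± 0.07 and 0.05 ± 0.13 and did not pass. Of the kinases that switch the complex off, Pdk1 differed by 0.54 ± 0.19 (adjusted p = 0.0792 in limma) and its high-calorie values of 0.73 to 0.85 lay above the standard-diet values of -0.25 to 0.65. Pdk2 and Pdk3 differed by 0.10 ± 0.05 and -0.03 ± 0.05.

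Of the first steps of the cycle, Aco1, cytosolic aconitase, which also acts as an iron-sensing RNA-binding protein, gave 0.47, 0.48, 0.55, 0.50 and 0.47 in high-calorie livers, against 0.30, -0.02, 0.24, 0.35 and 0.33 in standard-diet livers. The groups did not overlap, and the difference was 0.25 ± 0.07 (adjusted p = 0.0320 in limma). Citrate synthase, Cs, differed by 0.25 ± 0.09 and did not pass (adjusted p = 0.100 in limma). Idh2, the mitochondrial NADP-dependent isocitrate dehydrogenase, gave 0.75, 0.64, 0.53, 0.69 and 0.53 in high-calorie livers, against 0.41, -0.02, 0.24, 0.46 and 0.26 in standard-diet livers. Idh2 rose by 0.36 ± 0.08 with an adjusted p of 0.0123 in limma, again with no overlap. Its probe had the lowest mean log2 intensity of the 32 chosen probes, 7.09. Over the processing alternatives on the log2 scale, the Idh2 difference ran from 0.12 to 0.60. The cytosolic Idh1 differed by 0.32 ± 0.16 and did not pass. The 3 subunits of the NAD-dependent enzyme, Idh3a, Idh3b and Idh3g, differed by 0.24, 0.12 and 0.19, with adjusted p-values of 0.0535, 0.574 and 0.0781 in limma.

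In the 2-oxoglutarate dehydrogenase complex, Dlst, the succinyltransferase core, gave 0.62, 0.42, 0.58, 0.50 and 0.50 in high-calorie livers, against 0.19, -0.10, -0.01, -0.03 and 0.03 in standard-diet livers. The lowest high-calorie value was above the highest standard-diet value, and the difference was 0.51 ± 0.10 (adjusted p = 0.0065 in limma). Ogdh, the decarboxylating subunit of the same complex, differed by -0.12 ± 0.06 and did not pass. Dld, the lipoamide dehydrogenase shared with the pyruvate and branched-chain complexes, differed by 0.73 ± 0.22 (adjusted p = 0.0556 in limma), and its standard-diet values ran from -1.55 on replicate 2 to 0.03.

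Of the succinyl-CoA ligases, Suclg1, the subunit shared by the ATP- and GDP-forming enzymes, gave 0.04, 0.41, 0.15, 0.29 and 0.11 in high-calorie livers, against -0.48, -1.51, -0.43, -0.45 and -0.14 in standard-diet livers. The groups did not overlap, and the standard-diet array of replicate 2 was far below the others. Suclg1 rose by 0.80 ± 0.20 (adjusted p = 0.0244 in limma), and by 0.57 without that array (adjusted p = 0.0080 in limma). Sucla2, the ATP-forming partner, differed by 0.33 ± 0.12 and did not pass. One probe outside the rule, added after its values were seen, is described in the files as the GDP-forming subunit that Suclg2 encodes. It was 0.62 ± 0.15 higher in high-calorie than in standard-diet livers (adjusted p = 0.0214 in limma).

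Succinate dehydrogenase had no called subunit. Sdha, the flavoprotein, Sdhb, the iron-sulphur protein, and the membrane anchors Sdhc and Sdhd differed by 0.08, 0.51, 0.28 and 0.39, with adjusted p-values of 0.230, 0.218, 0.169 and 0.180 in limma. Sdhb ranged from 0.44 to 0.72 in high-calorie livers, against -1.22 to 0.65 in standard-diet livers, the lowest being replicate 2. Mdh2, the mitochondrial malate dehydrogenase, gave 0.37, 0.11, 0.25, 0.19 and 0.16 in high-calorie livers, against 0.13, -0.10, 0.02, -0.01 and -0.08 in standard-diet livers. These overlapped at 0.11 and 0.13, and the difference of 0.23 ± 0.06 passed (adjusted p = 0.0238 in limma). Mdh1, its cytosolic counterpart, and Fh1, fumarase, differed by 0.18 ± 0.11 and 0.02 ± 0.12. The anaplerotic and transaminating enzymes Glud1, Got1 and Got2 differed by 0.11, 0.36 and 0.09, and none passed.

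In 8 members all high-calorie values lay above all standard-diet values (Aco1, Idh2, Idh3g, Dlst, Suclg1, Pdhx, Pdk1 and Mpc1), against 5.15% of all genes tested. Leaving out single arrays moved the count of 8 called members from 4 to 14. It was 4 without high-calorie replicate 1, 5 without any other high-calorie replicate or without standard-diet replicate 3 or 4, and 14 without standard-diet replicate 5. The share of all genes called was 5.22% without high-calorie replicate 1 and 18.3% without standard-diet replicate 5, against 9.44% with all arrays. In the fits with 5 called members it was 4.22% to 7.28%. Mpc1, Dlst and Idh2 passed with every single array left out. The calls of Suclg1, Mdh2, Pcx, Aco1 and Dlat were lost in 3, 3, 5, 6 and 8 of the 14 cases, with highest adjusted p-values of 0.0607, 0.0564, 0.0831, 0.0673 and 0.0890 in limma.

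**Figure D2:**
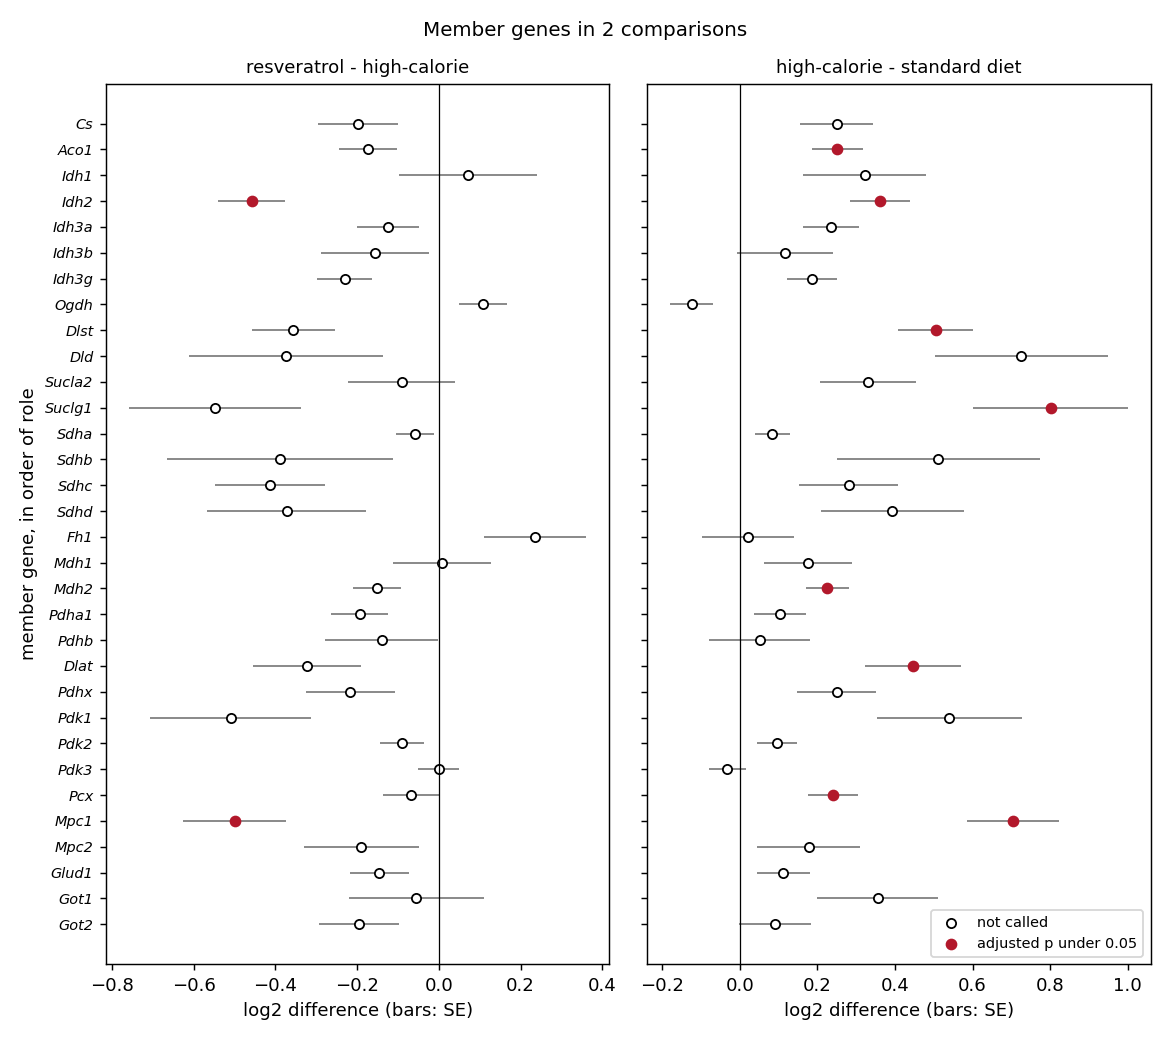
Log2 differences of the 32 tested members, ordered by role from the cycle to the transaminases, for resveratrol minus high-calorie (left) and high-calorie minus standard diet (right). Bars are standard errors of the limma fit, and filled points have an adjusted p under 0.05, 2 on the left and 8 on the right. Both panels use the same high-calorie arrays.

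The second comparison asked what adding resveratrol to the high-calorie diet did. Idh2 and Mpc1 were lower in resveratrol than in high-calorie livers, no member was higher, and 30 did not pass, beside 2.23% of all genes called lower, 3.16% called higher and 5.39% called in either direction. Idh2 gave 0.09, 0.21, 0.18 and 0.20 in resveratrol livers, against the high-calorie values of 0.53 to 0.75 given above. Idh2 fell by 0.46 on the log2 scale (SE 0.08, adjusted p = 0.0097 in limma), and the resveratrol values lay below all high-calorie values. Mpc1 gave 0.13, 0.17, -0.45 and 0.12 in resveratrol livers, against 0.43 to 0.61 in high-calorie livers. Mpc1 differed by -0.50 ± 0.13 (adjusted p = 0.0365 in limma), and the groups did not overlap. Replicate 3 stood apart at -0.45, and without it the Mpc1 difference was -0.35 and did not pass (adjusted p = 0.0733 in limma). The Mpc1 call was also lost with the day of image reading or the slide series as a block, and in 17 of 31 alternatives in all.

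The high-calorie arrays enter both comparisons, so the 2 sets of differences are not independent. The resveratrol median over the 32 members was -0.18, beside -0.0068 over all genes, and 28 members had a difference below 0, against 52.7% of all genes. At an unadjusted p under 0.05 stood 11 members, beside 22.2% of all genes tested. The 4 positive differences were those of Fh1 (0.24), Ogdh (0.11), Idh1 (0.07) and Mdh1 (0.01). Below all high-calorie values lay the resveratrol values of 7 members (Idh2, Dlst, Suclg1, Sdhb, Sdhc, Pdhx and Mpc1), against 6.15% of all genes. Dlst gave 0.06, 0.40, -0.18 and 0.38 in resveratrol livers and differed by -0.36 ± 0.10 (adjusted p = 0.0577 in limma). Idh3g and Sdhc differed by -0.23 and -0.41, with adjusted p-values of 0.0632 and 0.0881 in limma. Suclg1, Pdk1 and Dlat differed by -0.55, -0.51 and -0.32, and none passed. The count of 2 was 1 without any single high-calorie replicate or without resveratrol replicate 1 or 3. In those fits 1.08% to 4.28% of all genes were called. The count was 7 without standard-diet replicate 2, 6 without resveratrol replicate 2 and 3 without resveratrol replicate 4. The shares of all genes called in these latter fits were 7.87%, 4.38% and 6.25%, against 5.39% with all arrays. Idh2 passed with every single array left out.

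The third comparison set resveratrol on the high-calorie diet against the standard diet. No member passed in limma, beside 0.214% of all genes called, and 2 members had an unadjusted p under 0.05, beside 10.6% of all genes tested. These were Idh1, at 0.39 (95% interval 0.03 to 0.75), and Pcx, at 0.17 (0.03 to 0.32). The median was 0.04 over the members and 0.0005 over all genes, with 21 differences above 0 and 11 below. It was -0.03 with the Cy3 channel alone and -0.0022 with the deposited scores. For Idh2 the interval ran from -0.27 to 0.08 and for Mpc1 from -0.07 to 0.47. The interval was widest for Sdhb, -0.47 to 0.72, and narrowest for Sdha, -0.07 to 0.13. A difference that does not pass does not show that the groups were alike.

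**Figure D3:**
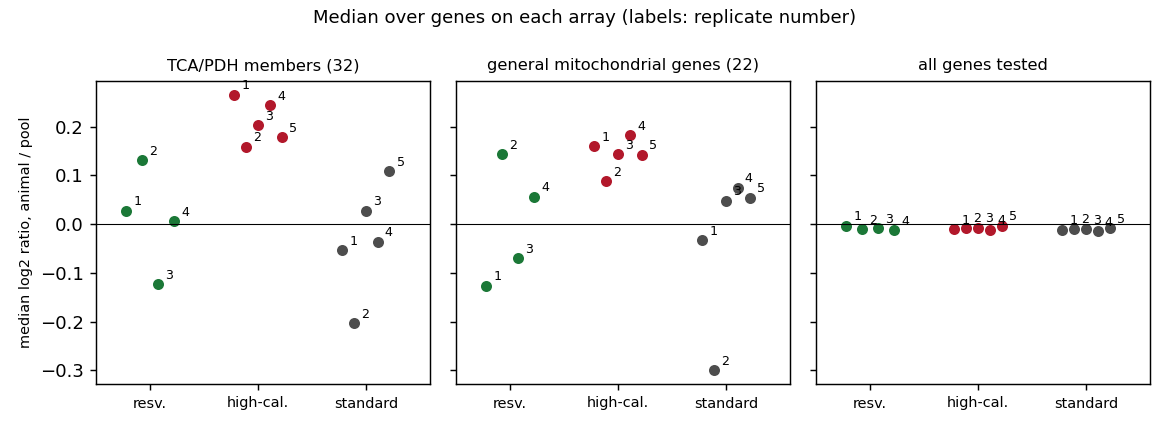
Median log2 ratio of animal to pool on each array over the 32 members, over 22 general mitochondrial genes and over all genes tested, with resveratrol, high-calorie and standard-diet animals from left to right and replicate numbers beside the points. The member medians of the high-calorie arrays lie between 0.16 and 0.27, above all others.

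Per array, the member median was -0.12 to 0.13 in resveratrol livers (mean 0.010 ± 0.105, SD), 0.16 to 0.27 in high-calorie livers (0.21 ± 0.044) and -0.20 to 0.11 in standard-diet livers (-0.031 ± 0.115). A comparison list of 23 general mitochondrial genes, for import, chaperones, channels and mtDNA upkeep, had 22 tested. Its median per array was -0.13 to 0.14, 0.09 to 0.18 and -0.30 to 0.07 in the same order of groups. Between high-calorie and standard diet, 21 of the 22 differences were above 0, beside 30 of 32 for the members, and the list's median was 0.13. Of the 22, 4 were called higher and none lower, beside 5.37% and 4.07% of all genes. The 4 were Hspd1 and Hspe1, the mitochondrial chaperonins, Cycs, cytochrome c, and Mfn2, a fusion protein, at 0.35, 0.35, 0.34 and 0.40. With resveratrol added, Mfn2 fell by 0.41 relative to the high-calorie diet (SE 0.11, adjusted p = 0.0405 in limma) and no other passed. In that comparison the list's median was -0.17 and all 22 tested genes were below 0, beside -0.18 and 28 of 32 for the members. Whether the members stood apart from other mitochondrial genes was not tested.

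In all, 10 members had more than 1 probe, and for 9 of them a second probe was tested. Adjusted over the 37136 probes tested, the second Mpc1 probe differed by 0.99 ± 0.21 between high-calorie and standard diet (adjusted p = 0.0121 in limma). The brightest Mpc1 probe differed by 0.70. Against the high-calorie diet, resveratrol livers differed on this probe by -0.63 ± 0.22 and did not pass (adjusted p = 0.117 in limma). The second probe of Pdha1, the catalytic subunit, differed by 0.58 ± 0.15 (adjusted p = 0.0279 in limma), against 0.10 for the brightest one. That of Sucla2 differed by 0.55 ± 0.14 (adjusted p = 0.0260 in limma), against 0.33 for the brightest one. In the other direction, the second Dld probe differed by 0.09 ± 0.05, against 0.73, and the second Cs probe by 0.02 ± 0.08, against 0.25. In resveratrol livers the second Cs probe fell by 0.31 relative to high-calorie livers (SE 0.08, adjusted p = 0.0470 in limma), against -0.20 for the brightest one. For Mpc1, Pdha1, Sucla2, Dld and Cs the size of the difference thus varied with the probe. Whether the probes of a gene differed beyond their errors was not tested.

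**Figure D4:**
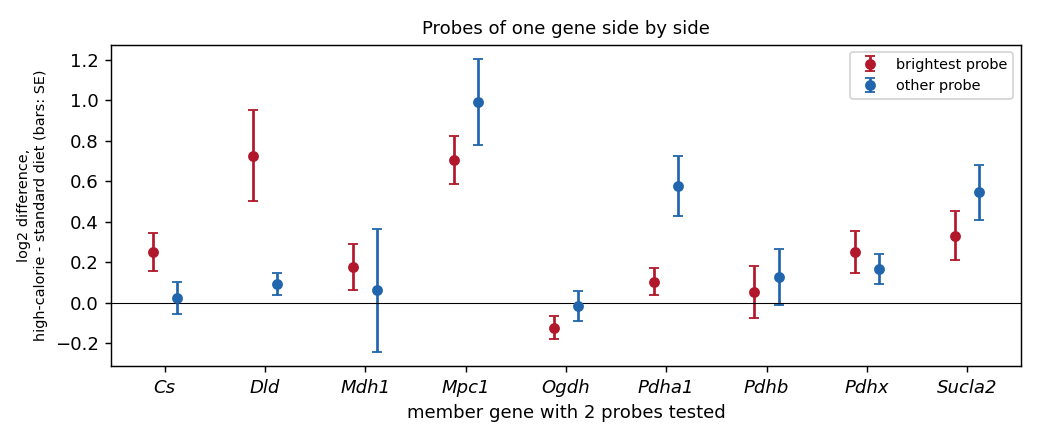
Log2 difference between high-calorie and standard diet, with its standard error, for the brightest and the other tested probe of the 9 members with 2 tested probes. The probes of Dld (0.73 and 0.09) and of Pdha1 (0.10 and 0.58) lie farthest apart.

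Of 13 further genes of the cycle and the pyruvate dehydrogenase complex, 6 were tested, 2 were higher in high-calorie than in standard-diet livers and none was lower. Among all genes tested, 5.37% were called higher and 4.07% lower. Pdk4, the kinase that shuts pyruvate dehydrogenase in fasting and fat feeding, gave 0.22, 0.71, -0.28 and 0.22 in resveratrol livers, 1.13, 1.09, 0.87, 1.06 and 0.58 in high-calorie livers, and 0.29, -0.36, -0.19, -0.52 and 0.02 in standard-diet livers. The high-calorie values lay above all standard-diet values. Pdk4 was 1.10 ± 0.18 higher in high-calorie than in standard-diet livers (adjusted p = 0.0023 in limma) and differed by -0.73 ± 0.19 between resveratrol and high-calorie (adjusted p = 0.0402 in limma). Lias, which makes the lipoyl group carried by Dlat and Dlst, was higher by 0.43 ± 0.09 (adjusted p = 0.0111 in limma). Pdp1, the other phosphatase, was not tested.

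Of 24 partners in pyruvate, malate, citrate, glutamate and propionate handling, 22 were tested, and 4 were higher in high-calorie than in standard-diet livers and none was lower. These counts stand beside the 5.37% of all genes called higher and 4.07% called lower. Slc25a10, the mitochondrial dicarboxylate carrier, gave 0.32, 0.55, -0.31 and 0.37 in resveratrol livers, 1.05, 0.82, 1.00, 0.90 and 0.65 in high-calorie livers, and 0.16, -0.01, -0.16, 0.11 and -0.08 in standard-diet livers. It differed by 0.88 ± 0.13 between high-calorie and standard diet (adjusted p = 0.0014 in limma) and by -0.65 ± 0.14 between resveratrol and high-calorie (adjusted p = 0.0193 in limma). In the resveratrol comparison 1 partner was called higher and 1, Slc25a10, lower, beside 3.16% and 2.23% of all genes. Gpt2, mitochondrial alanine transaminase, was higher on the high-calorie diet by 0.90 ± 0.14, Glul, glutamine synthetase, by 0.60 ± 0.16, and Mmut, which turns methylmalonyl-CoA into succinyl-CoA, by 0.49 ± 0.10.

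**Figure D5:**
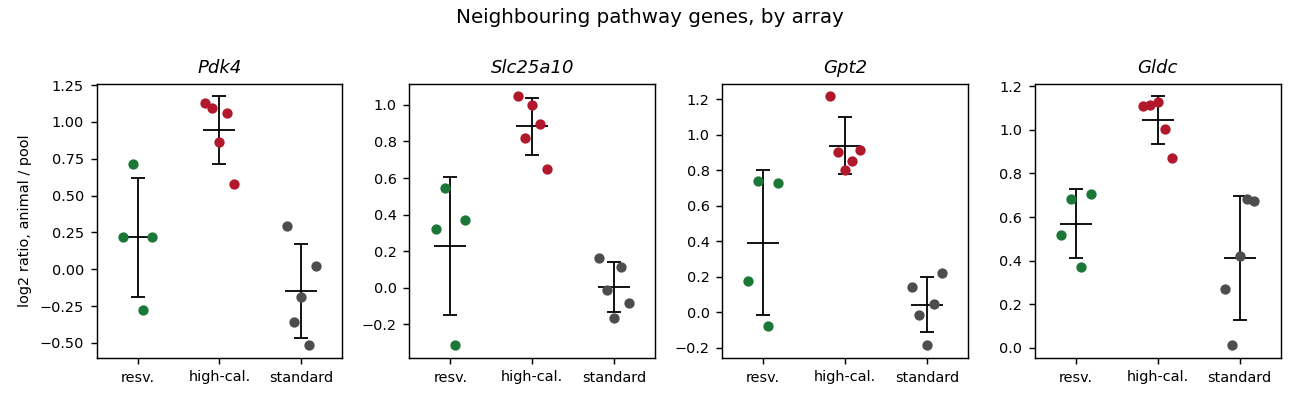
Log2 ratio of animal to pool on each array for 4 neighbouring genes, the kinase Pdk4, the carrier Slc25a10, the transaminase Gpt2 and the glycine cleavage enzyme Gldc, with resveratrol, high-calorie and standard-diet animals from left to right. Points are single animals and bars are mean and SD. High-calorie values lie above all standard-diet values for each of the 4.

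Of 7 genes of the complexes that share the Dld subunit, 6 were tested. Gldc, the decarboxylase of glycine cleavage, was 0.63 ± 0.11 higher in high-calorie than in standard-diet livers (adjusted p = 0.0050 in limma), and Gcsh, its lipoyl carrier, 0.34 ± 0.07 higher (adjusted p = 0.0134 in limma). Gldc in resveratrol livers differed from high-calorie livers by -0.48 ± 0.12 (adjusted p = 0.0380 in limma).

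Markers of cell types moved with the diets, and fewer cells of a type cannot be told apart from less RNA per cell in these bulk samples. Of 9 hepatocyte markers, 7 were tested and 3 were lower in high-calorie than in standard-diet livers (Apoa1, Ahsg and Hnf4a), and their median per array was 0.47 to 1.31 in resveratrol, -0.03 to 0.45 in high-calorie and 0.56 to 1.10 in standard-diet livers. All 6 tested stellate cell markers passed, 5 higher and 1 lower, with a median per array of -0.13 to 0.11, 0.26 to 0.37 and -0.15 to -0.03 in the same order. All 7 tested hepatocyte markers, Alb (albumin) among them, were well above background on all 14 arrays. None of 7 Kupffer cell and macrophage markers passed between high-calorie and standard diet, beside 5.37% of all genes called higher and 4.07% called lower. In 3 of the 7 all high-calorie values lay above all standard-diet values, beside 5.15% of all genes tested, and in 1 below. Other cell types had such markers too. They were 5 stellate, 2 endothelial, 1 fat cell and 1 lymphocyte marker above, and 2 hepatocyte, 1 stellate and 1 fat cell marker below. The macrophage median per array was -0.96, -0.97, -0.10 and 0.15 in resveratrol livers 1 to 4, -0.64 to -0.39 in high-calorie livers and -0.99 to -0.72 in standard-diet livers. The high-calorie and standard-diet ranges did not overlap, and resveratrol arrays 3 and 4 stood apart from 1 and 2. Of 5 endothelial markers, 2 were higher in high-calorie than in standard-diet livers. None of 4 cholangiocyte, 4 lymphocyte and 2 tested red cell markers passed, and of 5 fat cell markers Cfd rose by 2.52 and Retn fell by 0.20. Between resveratrol and high-calorie, 1 hepatocyte, 1 macrophage and 1 fat cell marker (Ahsg, Csf1r and Retn) were higher and 3 stellate cell markers were lower. The part of these cells in the member differences was not tested.

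Mean array brightness also differed between the diets, with overlapping ranges. The median net Cy3 intensity averaged 79.4 in resveratrol, 84.4 in high-calorie and 66.0 in standard-diet livers. Single arrays ran from 65.9 to 100.2, 57.7 to 114.4 and 48.6 to 85.6 in the same order. An effect of diet on brightness was not tested. With brightness as a covariate, 3 members passed between high-calorie and standard diet, beside 2.63% of all genes. Mpc1 was then 0.63 higher (adjusted p = 0.0231 in limma), and Dlst and Pcx also passed. Idh2 was 0.36 higher and did not pass (adjusted p = 0.0562 in limma). The calls of Suclg1, Aco1, Dlat and Mdh2 were lost as well. The scanner software read the images on 2 days, and all resveratrol arrays were read on day 1. Slides were put in 2 series here by cutting their sorted barcode numbers at the largest gap, and no label names these series. All standard-diet arrays fell in series 2. Day 1 held 2 high-calorie and 3 standard-diet arrays, and day 2 held 3 and 2. Within day 1, 3 members passed between high-calorie and standard diet, beside 2.51% of all genes, with Mpc1 0.77 and Idh2 0.35 higher. Within day 2 none passed in limma, beside 0.168% of all genes, with Mpc1 0.62 (adjusted p = 0.326) and Idh2 0.45 (adjusted p = 0.207). Within slide series 2 (3 high-calorie and 5 standard-diet arrays), 2 members passed, beside 2.56% of all genes, and the median was 0.24. The 2 were Mpc1 and Dlst, while Idh2 was 0.30 higher and did not pass (adjusted p = 0.140 in limma). Between resveratrol and high-calorie, Idh2 differed by -0.55 within day 1 (adjusted p = 0.0269 in limma) and by -0.56 within slide series 1 (adjusted p = 0.145 in limma). Slide series 1 held 2 high-calorie and 3 resveratrol arrays, and no gene of all those tested passed within it. The day of image reading and the slide series were also fitted as blocks. Between high-calorie and standard diet 7 and 6 members then passed, beside 7.69% and 5.74% of all genes. Between resveratrol and high-calorie 2 and 1 passed, beside 1.36% and 2.06% of all genes. Under the day block those 2 were Idh2 and Sdhc (-0.58, adjusted p = 0.0493 in limma), and under the slide block the 1 was Idh2. Mpc1 did not pass in the resveratrol comparison under either block, at -0.49 (adjusted p = 0.116 in limma) and -0.48 (adjusted p = 0.0885 in limma).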

How the data were processed

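The authors deposited Agilent scanner files of 14 two-colour arrays. Per the file headers, Feature Extraction 7.5.1 wrote spot and background intensity values for both channels. Per the labels, animal RNA carried Cy3 and a pool of 5 standard-diet livers carried Cy5 on every array, so a probe's dye effect cancels in differences between diets. A further deposited file in score units has columns of mean 0 and SD 1, with medians between -0.0497 and 0.00234, and their correlation with log processed Cy3 signals is 0.983 to 0.985. Its log base and making are not given in the sources used here, and a higher score stands for more animal RNA.

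Spot intensities were corrected with normexp (offset 50), log2 ratios were loess-normalised within arrays with control spots at weight 0, and 576 outlier-flagged spots were left out. Of 41174 probes, 20859 matched the RefSeq genes of GRCm38.p6 and gave 15944 genes, while unmatched probes kept the files' names. Each gene took its brightest probe and was tested if 4 or more arrays had it well above background in Cy3. One model with 3 groups was fitted in limma 3.58.1 (R 4.3.3, with the data.table package, version 1.17.8) with Benjamini-Hochberg adjustment over all genes, and calls needed an adjusted p under 0.05. The words rose, fell and passed are kept for such calls. The fit was checked on simulated data. Intervals are at 95%. The number of arrays limits the precision, and p-values rest on the spread between animals.

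All members were eligible for naming, in order of role. From each neighbouring list, up to 4 passing genes with the smallest adjusted p were named, with Pdk4 and Pdp1 always named. Some genes that this rule would name are not reported here. The members and lists were chosen with earlier results of these data known. Alternatives covered background correction, normalisation, filter, probe choice, weights, blocks and left-out arrays.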

Additional observations from a re-analysis of the deposited data

Results flagged for a closer look

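Over the 32 members and 3 diets, 96 sets of animals were searched for an array far from the others of its diet, and 7 values stood out, where chance alone gives about 1 in 20. Of these, 3 were on the resveratrol array of replicate 3. There Mpc1 was -0.45, against 0.12 to 0.17 on the other resveratrol arrays, Mpc2 was 0.15, against 0.71 to 0.75, and Ogdh was 0.28, against -0.02 to 0.03. Another 3 were on the standard-diet array of replicate 2, the dimmest. There Suclg1 was -1.51, against -0.48 to -0.14, Pdhx was -0.82, against -0.28 to -0.15, and Idh3b was -0.71, against -0.09 to 0.13. The last was Pdk3 on the high-calorie array of replicate 1, at -0.25, against -0.14 to -0.10 on the other high-calorie arrays. No cause was tested.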

How the results depend on the processing

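Shares in brackets are of all genes called under the same setting. The 8 members called between high-calorie and standard diet (9.44%) became 4 with the scanner's processed signals (7.2%) and 17 with median centring (9.28%). They became 1 with the Cy3 channel alone (1.32%), 1 with the deposited scores (1.34%, 30 members tested) and 14 with array weights (21.5%). With Cy3 brightness as a covariate they became 3 (2.63%). The count was 3 within day 1 of image reading (2.51%), 0 within day 2 (0.168%) and 2 within slide series 2 (2.56%). Leaving out single arrays gave 4 to 14 (4.22% to 18.3%). The member median of 0.25 was 0.13 with no background correction, 0.49 with median centring and 0.13 with the scores, in score units. Between resveratrol and high-calorie, the 2 members called (5.39%) became 4 with no background correction (8.25%) and 5 with array weights (9.31%). They became 1 with the mean over probes (5.01%), slide series as a block (2.06%) or within day 1 (0.159%). They became 0 with the scanner's processed signals (2.14%), median centring (0.367%), the Cy3 channel alone (0.138%) or the scores (0.155%). Within slide series 1 the count was also 0, and no gene of all those tested was called. Leaving out single arrays gave 1 to 7 (1.08% to 7.87%), and the median of -0.18 was -0.32 with the Cy3 channel alone. Between resveratrol and standard diet, the median of 0.04 was 0.17 with median centring. Leaving out standard-diet replicate 5 and resveratrol replicate 3 together was chosen after seeing the data, like the slide series splits. It gave 19 members (18 higher) for high-calorie against standard diet, beside 20.4% of all genes. For resveratrol against standard diet it gave 1 member, beside 1.57% of all genes, with a median of 0.14. Mpc1 kept its high-calorie call in 31 of 32 alternatives, Dlst in 28, Idh2 in 26, Suclg1 in 23, Mdh2 in 21, Aco1 and Pcx in 18 each and Dlat in 14. In the resveratrol comparison Idh2 kept its call in 26 of 31 and Mpc1 in 14 of 31. Leaving the scores aside, the Idh2 difference there ran from -0.79 to -0.15 and that of Mpc1 from -0.69 to -0.35. No called value changed sign. The causes were not tested.

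Same-numbered animals did not deviate together more than others (correlations -0.186 to 0.300 over 13 pairs, against -0.274 to 0.311 for the others). The numbers were therefore not used to pair the samples, although 13 pairs cannot exclude a weaker link. With a replicate block, 6, 1 and 0 members passed in the 3 comparisons, against 8, 2 and 0, and over all genes 2882, 409 and 48, against 3083, 1760 and 70.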
